A study of Mus musculus with 8 samples.

Results

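Integrins, claudins, protocadherins, nectins and the ZO scaffold proteins are surface and junction proteins with which cells hold to the matrix and to each other. Their RNA was read at 4 stages while mouse embryonic stem cells (strain 129/Ola) became heart muscle in culture. The 43 genes are all those of a table of 13540 genes whose symbol has the stem Itga, Itgb, Cldn, Pcdh, Tjp or Pvrl, the older name of the nectins. They comprise 10 integrin alpha genes, 5 integrin beta genes, 3 genes named for binding an integrin tail, 7 claudins, 3 ZO scaffold genes, 3 nectins, 7 protocadherin genes that stand alone and 5 of the clustered protocadherins. Day 0 gave the stem cells (ESC) and day 4 the mesoderm stage (MES). Cardiac precursors (CP) were taken on day 5.3, and cardiomyocytes (CM) on day 10. Each stage had 2 libraries of poly(A) RNA, 8 in all. All cultures shared one protocol: VEGF, BMP4 and Activin A were added when embryoid bodies were re-formed, and FGF10, basic FGF and VEGF once the cells were plated. No sort by a marker is described, so each stage is a culture of whatever cells it held.

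Each gene has 1 RPKM value per stage (reads scaled by gene length and by library depth), so levels can be set side by side between genes. Separate values of the replicates were not analysed here, and no difference below has an SD, a p-value or a replicate check. Depth, estimated from the steps between low values and from exon lengths, was between 62.0 M and 88.5 M reads per stage (M, 1000000). At these depths counting error is small except for the lowest values, which are given with a 95% Poisson interval that covers counting error only. Differences are log2 ratios of RPKM + 1, a scale that understates differences of genes with low values, and a gene is counted as higher or lower from 2-fold on that scale. Every gene of the table exceeds 1 RPKM at 1 stage or more. A gene of low level therefore had to be higher somewhere to be in the table, and counts over the 43 genes are descriptions. As a check of the stages, the summed level of 4 pluripotency markers was 1170.3, 82.1, 6.81 and 2.69 RPKM in the order ESC, MES, CP, CM, and that of 5 cardiomyocyte markers 10.1, 7.80, 921 and 7418 RPKM. All runs of 4 values below keep this order.

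Integrins are pairs of an alpha and a beta chain, and the pairing sets whether a cell binds laminin, fibronectin, collagen or vitronectin. Most alpha chains pair with beta1. Claudins form the strands of tight junctions between epithelial or endothelial cells, and the ZO proteins anchor them to actin. Nectins start cell contacts at adherens junctions together with cadherins. Protocadherins are cadherin relatives with weak adhesion of their own. Several of them act in early mesoderm and in the nervous system, and the clustered ones give neurons a surface identity through the choice of 1 of many promoters.

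Of the 43 genes, 9 exceeded their ESC value in MES by 2-fold or more and 10 were lower by as much, against 11.1% and 11.2% of all genes of the table. These are 20.9% and 23.3% of the 43. From MES to CP, 13 were higher and 4 lower (30.2% and 9.30%), against 8.91% and 3.91% of all genes. From CP to CM, 5 were higher and 6 lower (11.6% and 14.0%), close to the 11.3% and 12.8% of all genes. The median difference of the 43 genes was 0.03, 0.42 and -0.03 in the 3 steps, and that of all genes 0.05, -0.03 and -0.15. A range of at least 2-fold over the 4 stages was found in 37 genes (86.0%), against 63.2% of all genes, and 35 of the 43 reached 3 RPKM at some stage. The highest value was in ESC for 10 of the 37 genes and in CM for 13, while MES held 4 and CP held 10. In the order of the stages these are 23.3%, 9.30%, 23.3% and 30.2% of the 43 genes. Of all 13540 genes, 21.0%, 12.1%, 9.58% and 20.4% had such a range and their highest value at that stage. Itga4, Itgav, Itgb1, Itgb1bp2, Pcdhb17 and the entry Pcdhga11 were higher, by any amount, at every step, 6 of the 43 against 11.8% of all genes.

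**Figure D1:**
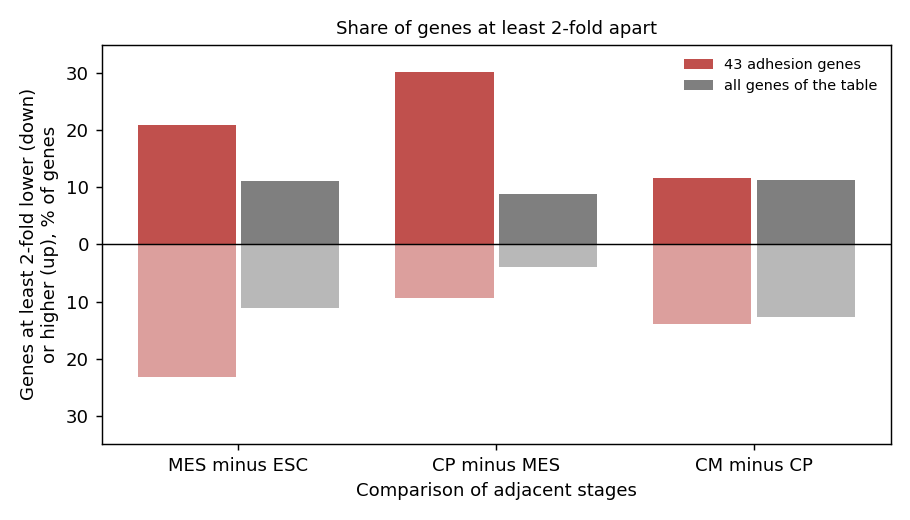
Bars give the percentage of genes at least 2-fold higher (upwards, full colour) or lower (downwards, pale) in each comparison of adjacent stages, for the 43 adhesion genes (red) and for all 13540 genes of the table (grey). The red bars stand further from 0 than the grey ones in the first 2 comparisons, and in the last one 11.6% and 14.0% of the 43 genes compare with 11.3% and 12.8% of all genes.

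**Figure D2:**
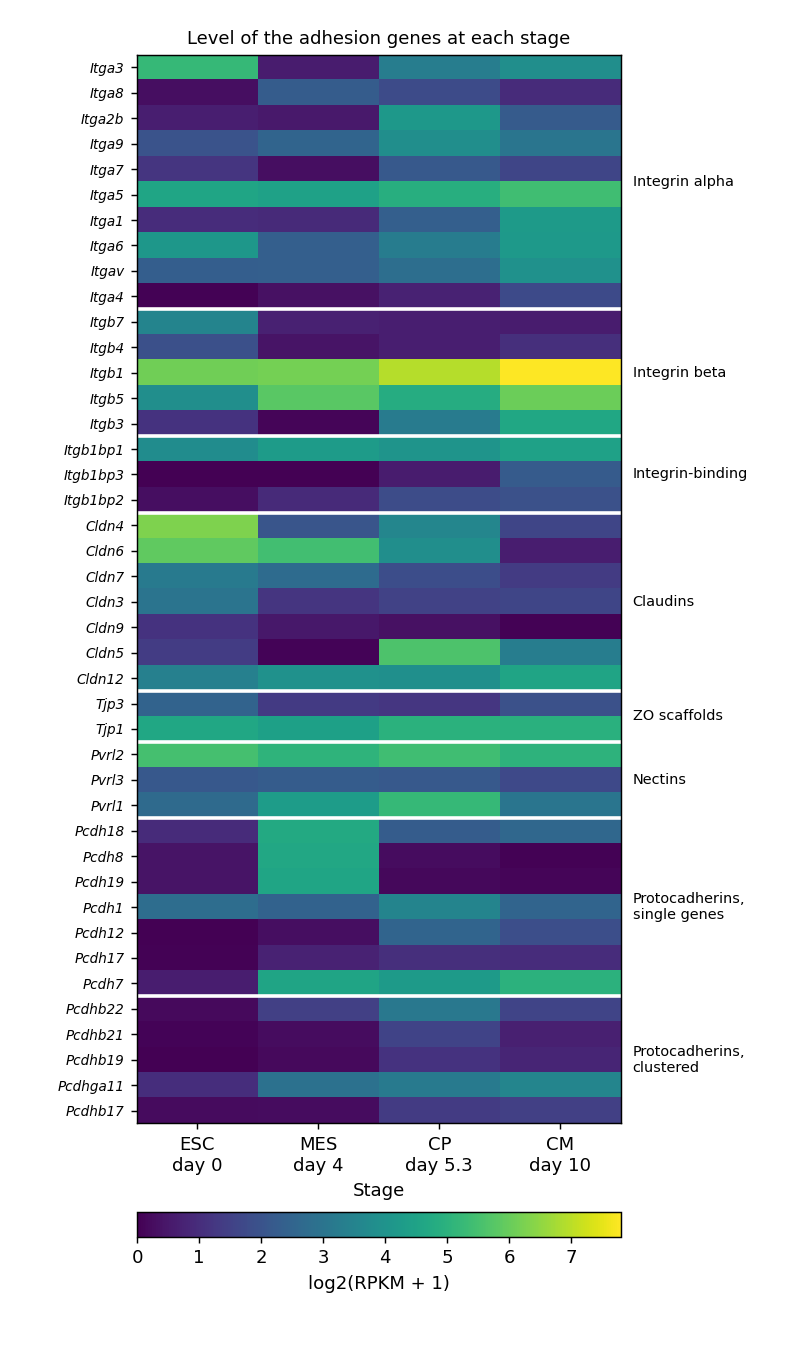
Colour gives log2(RPKM + 1) of the adhesion genes (lines, grouped by family) at the 4 stages (columns). Pcdh8, Pcdh18 and Pcdh19 are bright in MES, Cldn4, Cldn6, Itga3 and Itgb7 in ESC, Cldn5 and Itga2b in CP, and Itgb1 is the brightest gene at CM.

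Itgb1, the common beta chain, was the most abundant integrin gene at every stage. Its values in the order of the stages were 67.4, 70.1, 120.1 and 221 RPKM, and neither of the last steps reached 2-fold on its own (0.77 and 0.87 on the log2 scale). Itgb5, a vitronectin receptor chain, stood at 13.5, 54.4, 27.5 and 64.6 RPKM. It was thus high at MES and at CM, with a log2 difference of 1.93 from ESC to MES and of 1.21 from CP to CM, and in MES it made up 43.3% of the summed beta level. Itgb3, which pairs with the alpha chains of platelets and of vitronectin binding, stood at 1.18, 0.0801, 8.47 and 24.1 RPKM. Its MES value has 95% Poisson bounds of 0.0536 and 0.115 RPKM, and CP was higher by 3.13 on the log2 scale. Itgb7, a beta chain known from lymphocytes, was an ESC gene in these cultures, at 10.3 RPKM in ESC and 0.653, 0.58 and 0.507 RPKM later. Itgb4, the laminin receptor chain of epithelial hemidesmosomes, stood at 2.75, 0.334, 0.581 and 1.08 RPKM. Of the 5 beta genes, 3 were lower and 1 higher in MES than in ESC, against 11.2% and 11.1% of all genes. The summed level of the family was 95.1, 125, 157 and 311 RPKM over the stages, so that CM stood 3.27 times above ESC.

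Among the alpha genes Itga5 varied least and Itga3 had the deepest dip. Itga5, the fibronectin receptor chain, stood at 22.8, 20.9, 28.3 and 41.7 RPKM and was the only one of the 10 alpha genes with a range under 2-fold. It made up 52.3% of the summed alpha level in MES and between 26.5% and 34.5% at the other stages. Itga3, a laminin receptor chain, was the leading alpha gene of ESC at 36.6 RPKM and then stood at 0.495, 8.88 and 13.3 RPKM. Its level differed by -4.65 on the log2 scale from ESC to MES, and its share of the alpha level was 42.7% and 1.23%. Itga6, the other main laminin receptor chain, showed a shallower dip at the same stage, with 16.4, 4.10, 8.60 and 17.3 RPKM. Itga7, a laminin receptor chain of muscle, had its lowest value in MES too, at 1.28, 0.212, 3.49 and 2.11 RPKM. All 3 of these laminin receptor genes were thus lowest in MES, with Itga6 and Itga3 past 2-fold from ESC and Itga7 at -0.91 (-1.33 with a pseudocount of 0.5, -2.15 with 0.1 and -1.67 with each stage scaled to 1000000). Summed over the 10 genes the alpha level was 85.8, 40.1, 92.8 and 121 RPKM, lowest in MES, and the ratio of Itgb1 to the sum of its 9 possible alpha partners was 0.79, 1.77, 1.58 and 1.89 over the stages.

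Several less abundant alpha genes were highest in CP or CM. Itga1, a collagen receptor chain, stood at 0.974, 0.911, 4.15 and 18 RPKM. It was at least 2-fold higher in both of the last steps (1.43 and 1.88), as was Itgb3 (3.13 and 1.40). At a pseudocount of 0.5 this held for Itgb1bp3 too (1.03 and 2.03), and at 0.1 also for Itga4 (1.11 and 1.65) and Itga6 (1.052 and 1.004). Itgav, the alpha chain of the vitronectin receptors, stood at 3.99, 4.15, 6.08 and 14.3 RPKM and passed 2-fold in the step to CM (1.11). Its partners Itgb3 and Itgb5 passed 2-fold in that step as well. Itga9, a receptor chain for tenascin and for VCAM1, stood at 2.99, 4.70, 13.3 and 7.11 RPKM. Itga8, the receptor chain for nephronectin, had its highest value in MES, with 0.217, 3.83, 2.41 and 0.953 RPKM. Itga4, which binds VCAM1 and fibronectin, was at 0.0227, 0.264, 0.687 and 2.37 RPKM and missed 2-fold in each step, by little in the last (0.9965 as computed, 1.27 with a pseudocount of 0.5). Of the 10 alpha genes, 5 passed 2-fold upwards from MES to CP and 0 downwards, against 8.91% and 3.91% of all genes. Their median difference was 1.12 (0.99 with quantile normalization). From CP to CM, 2 were higher and 1 was lower, against 11.3% and 12.8% of all genes. For comparison, the 4 smooth muscle markers had a summed level of 273, 6.66, 566 and 2429 RPKM. The 5 fibroblast and matrix markers in the table, of 6 listed, had 18.3, 6.16, 33.7 and 253 RPKM. The part of such cells in the integrin values was not tested.

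**Figure D3:**
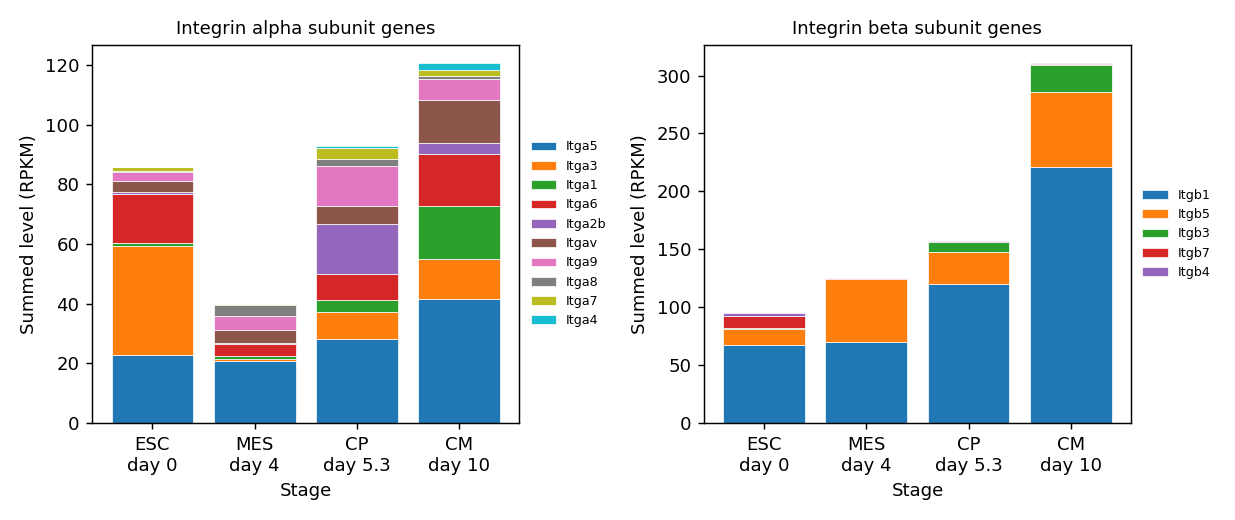
Stacked bars give the RPKM of each integrin alpha gene (left) and beta gene (right) at the 4 stages, so that a bar's height is the summed level of the family. On the left the bar of MES is the lowest (40.1 RPKM) and the Itga3 part nearly vanishes there; on the right the CM bar is the tallest (311 RPKM) and Itgb1 is the largest part of every bar.

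Itga2b encodes the alpha chain of the platelet fibrinogen receptor, which pairs with beta3 and marks the first blood progenitors. It stood at 0.565, 0.459, 16.9 and 3.69 RPKM, a log2 difference of 3.62 from MES to CP and of -1.93 from CP to CM. Itgb3 did not follow it in the last step: the ratio of Itgb3 to Itga2b was 0.50 in CP and 6.52 in CM. Beside these genes, the 5 blood and megakaryocyte markers in the table, of 8 listed, had a summed level of 1.84, 7.52, 158 and 9.37 RPKM. Most of the sum in CP was Hbb-bh1, an embryonic globin, which stood at 129 RPKM there and 2.32 RPKM in CM and was listed at 0 in ESC. From CP to CM, 3 of the 5 markers were lower by 2-fold or more and 1 was higher, against 12.8% and 11.3% of all genes. The marker that was higher was Pf4, a platelet chemokine. It was listed at 0 in ESC and MES and had 0.369 RPKM on day 5.3 and 3.86 RPKM on day 10. In bulk RNA fewer cells of a type and less RNA per cell cannot be told apart, and the part of blood cells in the Itga2b values was not tested.

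The 3 genes named for binding the beta1 tail are not integrins. Itgb1bp1, the tail-binding protein ICAP1, stood at 12.9, 18.4, 15.3 and 20.8 RPKM with a range under 2-fold. Itgb1bp2, the muscle chaperone melusin, stood at 0.214, 0.906, 2.53 and 2.79 RPKM. Itgb1bp3, now called Nmrk2 and a kinase of NAD synthesis, was close to unread early, with 1 read in ESC (0.00845 RPKM) and 0 reads in MES, where 3 reads, taken as the limit that a count of 0 allows, would give 0.0308 RPKM. It reached 0.521 RPKM in CP and 3.67 RPKM in CM. Itgb1bp2 and Itgb1bp3, both known from muscle, were thus higher at the 2 late stages than at the early ones.

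The claudins exchanged their leading member at each step, and their summed level in CM was 0.231 of that in ESC. Cldn4, an epithelial claudin, led in ESC and stood at 77.3, 3.16, 10.9 and 2.11 RPKM, a log2 difference of -4.23 from ESC to MES. Cldn6, a claudin of embryonic epithelia and pluripotent cells, stood at 58.5, 41.9, 13.3 and 0.533 RPKM. It stayed within 2-fold where Cldn4 had its largest difference (-0.47 from ESC to MES), and its log2 differences in the next steps were -1.58 and -3.22. In MES it made up 62.7% of the claudin level. Cldn7 and Cldn3, both epithelial, were highest in ESC as well. Cldn7 stood at 8.31, 5.56, 2.61 and 1.57 RPKM and passed 2-fold in no single step, except from MES to CP with a pseudocount of 0.1 (-1.06) or quantile normalization (-1.01). Cldn3 stood at 7.02, 1.28, 1.91 and 2.08 RPKM. Cldn9, which neighbours Cldn6 in the genome, was low at 1.21, 0.416, 0.280 and 0.0315 RPKM, the last resting on 4 reads. Cldn6, Cldn7 and Cldn9, with Itgb7, were the 4 genes of the 43 that were lower, by any amount, at every step (9.30%, against 16.5% of all genes).

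Epithelial markers are given beside these claudins. The 7 listed, all in the table, had a summed level of 490, 217, 268 and 349 RPKM. In MES 5 of them were lower than in ESC by 2-fold or more and 0 higher, against 11.2% and 11.1% of all genes. Cdh1, E-cadherin, stood at 138, 31.5, 9.30 and 0.217 RPKM, and Epcam, which binds claudins, at 93.0, 26.3, 9.49 and 0.481 RPKM. The keratin genes Krt8 and Krt18 stayed within 2-fold in each step and stood at 61.1 and 111 RPKM in CM, and Krt19 stood at 30.3, 5.88, 19.96 and 176 RPKM. The part of epithelial cells in the claudin values was not tested.

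Cldn5, the claudin of blood vessel walls, was the only claudin highest in CP. It stood at 1.59, 0.0457, 48.5 and 8.97 RPKM. The MES value rests on 4 reads (95% Poisson bounds 0.0124 and 0.117 RPKM), and the log2 difference from MES to CP was 5.57, the largest of the 43 genes in any step. In CP Cldn5 made up 53.2% of the claudin level, and its log2 difference from CP to CM was -2.31. Cldn4, Cldn5, Itga2b and Pcdhb22 were the 4 genes of the 43 (9.30%) that stood at least 2-fold higher in CP than in both MES and CM, against 2.35% of all genes, though Cldn4 was highest in ESC. The 7 endothelial markers, all in the table, had a summed level of 20.1, 64.6, 244 and 111 RPKM, with Emcn listed at 0 in ESC and MES. The MES sum was nearly all Kdr, a VEGF receptor, at 63.2 RPKM, which stood at 53.4 RPKM in CP. From MES to CP, 5 of the 7 passed 2-fold upwards and 0 downwards, against 8.91% and 3.91% of all genes. From CP to CM, 0 passed upwards and 3 downwards, against 11.3% and 12.8% of all genes. The log2 differences of the last step ran from -3.01 in Tek to 0.35 in Emcn, with VE-cadherin (Cdh5) at -0.99 and Pecam1 at -0.15. The part of endothelial cells in the Cldn5 values was not tested. Cldn12, a claudin without the usual anchor to ZO proteins, was the only claudin highest in CM, with 9.46, 14.4, 13.7 and 22.4 RPKM and 59.5% of the claudin level there.

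Of the scaffolds that hold claudins to actin, Tjp1 (ZO-1) stayed within 2-fold at 24.1, 20.5, 30.5 and 29.8 RPKM. Tjp3 (ZO-3), an epithelial scaffold, stood at 4.64, 1.52, 1.33 and 2.82 RPKM with a log2 difference of -1.16 from ESC to MES.

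**Figure D4:**
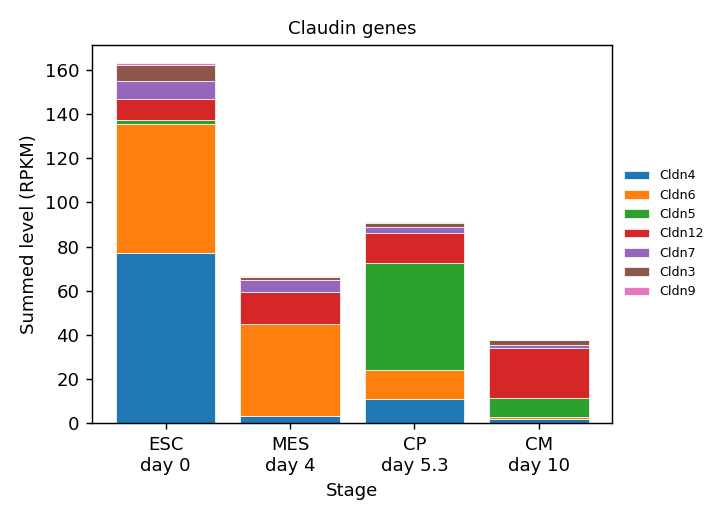
Stacked bars give the RPKM of each claudin gene at the 4 stages, so that a bar's height is the summed level of the family. The bar is tallest in ESC (163 RPKM), where Cldn4 and Cldn6 fill most of it, Cldn6 is the largest part in MES, Cldn5 in CP and Cldn12 in CM.

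Among the 43, 4 genes dipped in MES by at least 2-fold and were at least 2-fold higher again in CP, namely Cldn4, Cldn5, Itga3 and Itgb3. This is 9.30% of the genes, against 1.65% of all genes of the table. They recovered to unlike extents. In CP Itga3 and Cldn4 stood below their ESC values (8.88 against 36.6 RPKM, and 10.9 against 77.3 RPKM), while Itgb3 and Cldn5 stood above them (8.47 against 1.18 RPKM, and 48.5 against 1.59 RPKM). The count is a description, since the 43 genes were chosen with earlier results of these data known.

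Among the nectins, Pvrl1 (nectin-1) was the one that varied, at 5.43, 18.9, 36.1 and 7.11 RPKM. Its log2 difference was 1.63 from ESC to MES and -2.19 from CP to CM. Pvrl2 (nectin-2) stood between 31.6 and 44.0 RPKM and Pvrl3 (nectin-3) between 2.28 and 3.83 RPKM over the 4 stages, both within 2-fold. The part of Pvrl1 in the summed nectin level was 10.3% in ESC and 44.8% in CP.

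Protocadherins that stand alone were the family with the largest median difference in a step, 3.76 from ESC to MES. In that step 4 of 7 were at least 2-fold higher and 0 lower, against 11.1% and 11.2% of all genes. Pcdh8, known as paraxial protocadherin and a gene of gastrulating mesoderm, stood at 0.337, 24.4, 0.196 and 0.0383 RPKM. Pcdh19, an X-linked gene known for its role in epilepsy, stood at 0.327, 23.1, 0.118 and 0.0862 RPKM. Pcdh18 stood at 0.954, 25.5, 3.80 and 5.04 RPKM. All 3 had nearly the same level in MES, and their differences from ESC to MES were 4.25, 4.18 and 3.76 on the log2 scale. From day 4 to day 5.3 the log2 differences of Pcdh8 and Pcdh19 were -4.41 and -4.43, which put both below their ESC values. That of Pcdh18 was -2.47, and it stayed above its own. These were the 3 genes of the 43 that peaked in MES by at least 2-fold on both sides (6.98%, against 1.80% of all genes).

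Because these 3 genes shared this course, their proximal promoters are shown, with those of Itga2b and Cldn5, which peaked in CP, for comparison. Each is the 250 bases before the RefSeq start site on the gene's strand, build GRCm38.p6. Capitals mark CG dinucleotides and matches to the CCAAT box and TATA box letters that the next paragraph spells out. Pcdh8 lies at chr14:79771313-79771562 on the minus strand, Pcdh18 at chr3:49757317-49757566 on the minus strand, Pcdh19 at chrX:133688994-133689243 on the minus strand, Itga2b at chr11:102469884-102470133 on the minus strand and Cldn5 at chr16:18776597-18776846 on the plus strand.
Pcdh8: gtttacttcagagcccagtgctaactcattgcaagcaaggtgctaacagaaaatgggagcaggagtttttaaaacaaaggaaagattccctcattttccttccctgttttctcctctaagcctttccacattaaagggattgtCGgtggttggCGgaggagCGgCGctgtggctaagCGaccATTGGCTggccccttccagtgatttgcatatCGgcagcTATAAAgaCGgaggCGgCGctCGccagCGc
Pcdh18: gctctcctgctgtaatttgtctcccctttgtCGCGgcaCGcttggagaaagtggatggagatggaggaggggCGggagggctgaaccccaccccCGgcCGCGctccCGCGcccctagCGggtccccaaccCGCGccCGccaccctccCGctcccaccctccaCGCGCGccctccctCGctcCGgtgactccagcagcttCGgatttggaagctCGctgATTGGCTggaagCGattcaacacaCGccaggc
Pcdh19: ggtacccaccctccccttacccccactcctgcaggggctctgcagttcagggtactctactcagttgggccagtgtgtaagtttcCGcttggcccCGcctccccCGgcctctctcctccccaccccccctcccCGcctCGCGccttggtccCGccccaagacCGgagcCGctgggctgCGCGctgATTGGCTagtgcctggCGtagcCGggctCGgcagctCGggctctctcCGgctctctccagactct
Itga2b: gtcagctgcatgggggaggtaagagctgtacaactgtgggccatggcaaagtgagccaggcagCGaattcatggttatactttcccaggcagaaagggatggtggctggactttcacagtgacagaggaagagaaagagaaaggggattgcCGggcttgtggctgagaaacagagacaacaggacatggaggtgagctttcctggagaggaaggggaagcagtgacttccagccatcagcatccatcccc
Cldn5: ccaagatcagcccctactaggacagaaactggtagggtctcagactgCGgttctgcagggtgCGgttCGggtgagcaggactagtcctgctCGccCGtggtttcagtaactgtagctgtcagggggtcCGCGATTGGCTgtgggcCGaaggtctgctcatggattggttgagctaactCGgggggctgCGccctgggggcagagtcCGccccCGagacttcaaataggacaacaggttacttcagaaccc

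The 3 mesoderm promoters held 11, 23 and 16 CG dinucleotides in Pcdh8, Pcdh18 and Pcdh19, that of Cldn5 held 12 and that of Itga2b held 2, against a median of 6 over 32851 promoters of the same length. The letters ATTGGCT, which with AGCCAAT on the other strand are a form of the CCAAT box, began 68, 32 and 65 bases before the start of Pcdh8, Pcdh18 and Pcdh19 and 118 bases before that of Cldn5. They were chosen for the search after the sequences had been seen. The 28 of the 43 genes with an entry gave 33 start sites, and 5 of the 28 held these letters on either strand, the fifth being Pcdh17, against 7.25% of all promoters. Of the 5 protocadherins with an entry only Pcdh7 lacked them. TATAAA stood 30 bases before the start in Pcdh8 and occurred, on either strand, in 2 of the 28 genes and 12.4% of all promoters. The T-box letters TCACACCT, the GATA letters AGATAA and the ETS letters CCGGAAG, searched on both strands, were in none of the 5 promoters shown. They were in 0, 1 and 5 of the 28 genes and in 1.12%, 9.99% and 6.91% of all promoters. None of the motifs overlaps another in the 5 promoters, apart from the CG dinucleotides.

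Pcdh7 shared the difference between ESC and MES but not the later one. It stood at 0.531, 22.6, 18.1 and 31.4 RPKM, and was the most abundant protocadherin in CP and CM, with 47.3% and 69.9% of the summed level of the 7 genes. In M21, 21.1% of its exon bases also lie in exons of other genes, and strand was not used. Pcdh12, a protocadherin of endothelial cells, stood at 0.0143, 0.231, 4.72 and 2.63 RPKM, a log2 difference of 2.22 from MES to CP. In that step 5 of the 7 endothelial markers passed 2-fold upwards and 0 downwards, against 8.91% and 3.91% of all genes. The part of endothelial cells in the Pcdh12 values was not tested. Its ESC value rests on 6 reads (95% Poisson bounds 0.00523 and 0.0310 RPKM). Pcdh1 was the main protocadherin of ESC, with 72.6% of the summed level there, and stood at 5.85, 4.52, 10.3 and 4.75 RPKM. Its difference from MES to CP was 1.04, or 0.96 with quantile normalization. Pcdh17 stayed between 0.0419 and 1.06 RPKM.

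The 5 clustered protocadherins in the table, of 57 such symbols in GENCODE M21, were all lowest in ESC. Pcdhb22 stood at 0.143, 1.78, 7.78 and 2.01 RPKM and passed 2-fold in each of the 3 steps, with log2 differences of 1.28, 1.66 and -1.54. The entry named Pcdhga11 stood at 1.03, 6.55, 8.24 and 10.7 RPKM and differed by 1.89 from ESC to MES. Its Ensembl ID, ENSMUSG00000023036, is named Pcdhgc4 in GENCODE M21, and 41.9% of the 32-base words of its longest transcript occur in other gamma protocadherins, which share their last exons. Its value may thus rest on reads of several promoters. Pcdhb17, Pcdhb19 and Pcdhb21 stayed under 2 RPKM, with highest values of 1.76 in CM, and 1.21 and 1.96 in CP. Pcdhb17 exceeded 1 RPKM only in CP and CM, and Pcdhb19 and Pcdhb21 only in CP. The table keeps only genes above 1 RPKM somewhere, so these 3 are in it only through those values. From MES to CP, 3 of the 5 genes were at least 2-fold higher and 0 lower, against 8.91% and 3.91% of all genes. Pcdhb17 and Pcdhb21 are 2 of these 3, so the count is in part fixed by that filter and is a description only. The median difference of the 5 was 1.09. With quantile normalization Pcdhb17 was under 2-fold (0.89), and with a pseudocount of 0.5 Pcdhb19 was over it (1.40). Beside these genes, the 3 neural markers in the table, of 5 listed, had a summed level of 101.7, 14.5, 11.3 and 24.9 RPKM. Most of the ESC sum was Tubb3, at 97.2, 7.27, 0.527 and 1.07 RPKM. The other markers ran otherwise, with Ncam1 at 2.55, 7.25, 6.58 and 22.9 RPKM and Pax6 at 1.99, 0.0195, 4.21 and 0.949 RPKM. The part of neural cells was not tested. Pcdhb21 and Pcdhb22 share 11.02% and 7.83% of their words with each other, so reads could have been split between them. Of 8 genes that act on these promoters or on chromatin loops there, 0 were higher and 0 lower from ESC to MES. From MES to CP 0 were higher and 1 lower, and from CP to CM 0 were higher and 3 lower. The shares of all genes in the 3 steps were 11.1% and 11.2%, 8.91% and 3.91%, and 11.3% and 12.8%. Ctcf, the insulator protein that loops enhancers to these promoters, stood at 33.3, 38.7, 26.8 and 11.8 RPKM, and Dnmt3b, which methylates them, at 81.4, 51.6, 24.6 and 0.807 RPKM. Smchd1 stood at 10.9, 19.7, 12.7 and 5.75 RPKM. Rad21, at 82.1, 78.0, 64.3 and 46.6 RPKM, and Smc3, at 53.5, 45.7, 34.6 and 23.1 RPKM, stayed within 2-fold in each step.

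**Figure D5:**
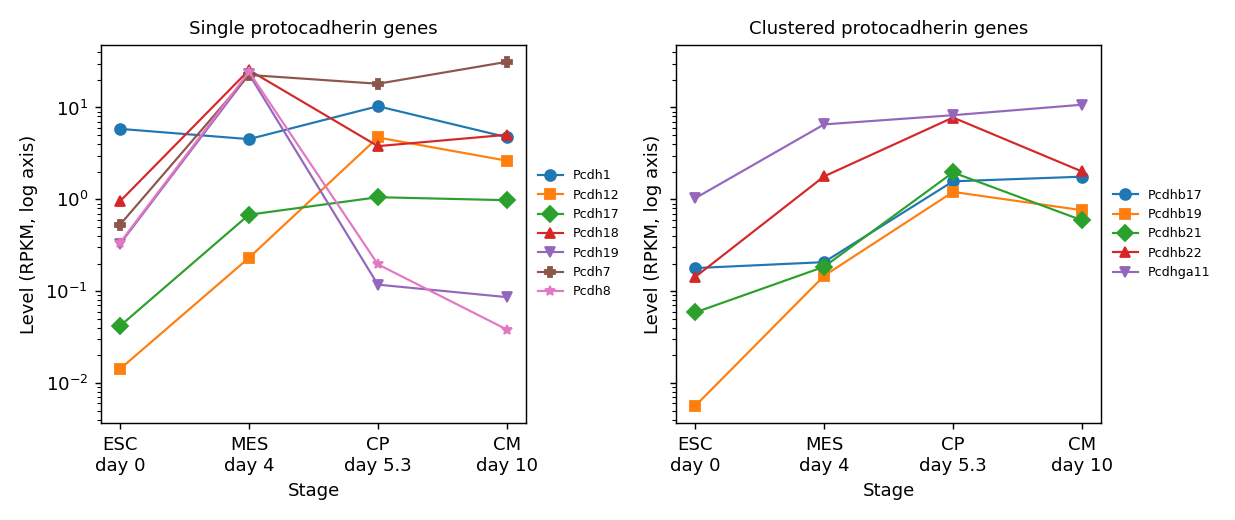
Points give RPKM on a log axis at the 4 stages, with 1 line per gene, for the protocadherin genes that stand alone (left) and the clustered ones (right). Pcdh8, Pcdh18, Pcdh19 and Pcdh7 meet between 22.6 and 25.5 RPKM in MES and part afterwards; the clustered genes are lowest in ESC.

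Partner genes were described by lists. A rule of level and size picks members of each list, and only some of those picked are named here. The shares of all genes at least 2-fold higher and lower, beside which the counts stand, were 11.1% and 11.2% from ESC to MES, 8.91% and 3.91% from MES to CP, and 11.3% and 12.8% from CP to CM. Of 22 integrin adaptors in the table, 4 were higher and 2 lower from ESC to MES, 3 higher and 0 lower from MES to CP, and 7 higher and 4 lower from CP to CM. Vinculin (Vcl), which links integrins to actin, stood at 45.3, 44.1, 74.2 and 97.2 RPKM, and Fermt3, the kindlin of blood cells, at 0.910, 1.24, 17.8 and 2.71 RPKM, a course like that of Itga2b. Tns1, a tensin that binds beta chains, stood at 1.53, 2.37, 1.499 and 36.0 RPKM. Of 19 ligand genes, 5 were higher and 8 lower from ESC to MES, 8 higher and 2 lower from MES to CP, and 13 higher and 1 lower from CP to CM. Fibronectin (Fn1), the ligand of the Itga5 chain, stood at 159, 715, 246 and 243 RPKM. It was thus highest in MES, where Itga5 was close to its ESC level (20.9 and 22.8 RPKM). Ligand genes far lower in MES than in ESC were Spp1, Icam1 and Thbs1. Spp1 stood at 164.5, 0.118, 0.0468 and 0.473 RPKM, Icam1 at 27.7, 0.358, 2.45 and 8.89 RPKM and Thbs1 at 26.1, 0.710, 2.02 and 39.4 RPKM. The collagen gene Col4a1 stood at 11.9, 61.3, 65.6 and 204.5 RPKM, and Lamb1, a laminin chain, at 46.7, 41.9, 47.4 and 183 RPKM. Both were highest in CM like Itga1, while Itga6 was nearly level between ESC and CM (16.4 and 17.3 RPKM). The other laminin chains listed ran unlike Lamb1 and unlike each other from ESC to MES. Lama5 (59.6 and 12.4 RPKM) and Lamc1 (70.5 and 19.8 RPKM) were lower, and Lama1 (5.30 and 18.8 RPKM) was higher. Lama2 and Lama4 differed by less than 2-fold.

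Against the same shares of all genes, 11.1% and 11.2%, 8.91% and 3.91%, and 11.3% and 12.8% in the 3 steps, the junction partners were counted. Of 20 tight junction partners, 5 were higher and 5 lower from ESC to MES, 6 higher and 1 lower from MES to CP, and 2 higher and 5 lower from CP to CM. F11r (JAM-A) stood at 29.8, 11.2, 23.6 and 57.3 RPKM and Cgnl1, the cingulin relative of junctions, at 12.004, 23.0, 57.4 and 6.01 RPKM. Jam2 was an ESC gene at 22.2 RPKM, with 0.522, 0.363 and 0.814 RPKM later. Of 13 partners at adherens junctions and desmosomes, 2 were higher and 4 lower from ESC to MES, 5 higher and 1 lower from MES to CP, and 3 higher and 2 lower from CP to CM. Pkp2, a desmosome plaque gene of heart muscle, stood at 32.5, 4.14, 42.4 and 68.9 RPKM, and was thus another adhesion gene with its lowest value in MES. Among 7 other large cadherins, Dchs1, the partner of Fat4, stood at 0.274, 10.1, 12.1 and 8.61 RPKM, while Fat1 stayed within 2-fold between 33.0 and 49.1 RPKM.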

How the data were processed

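Poly(A) RNA was sequenced from 8 samples, 2 per stage. Per the submitters' processing notes, Novoalign 2.07.00 was used, with mm9 as genome build. What counted the reads, on which annotation, and whether a stage's value pools its libraries is not given in the sources used here. Values were deposited by the authors as RPKM, 1 column for each stage, for 13540 genes that all exceed 1 RPKM somewhere.

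The 43 genes were taken by symbol, and 1 of them enters the counts but is not reported here. The members, the gene lists and the rule for named genes were chosen with earlier results of these data known. That rule gives all 4 values for genes that reach 5 RPKM, or that differ at least 2-fold in a step and reach 2 RPKM. Cldn9, Itga4, Itgb1bp2, Pvrl3, Pcdh17, Pcdhb17, Pcdhb19 and Pcdhb21 fall outside it and were described after their values were seen. For the partner lists it takes up to 3 genes of the highest mean and 3 of the largest difference, and not all of these are named. Lama1, Lama2, Lama4, Lama5 and Lamc1 fall outside it and were described after their values were seen.

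Differences are log2 ratios with a pseudocount of 1 RPKM and no test, since there is 1 value per stage. Depths of 75.3, 62.0, 64.8 and 88.5 M reads were found from the steps between low values (92.4% of 2238 low genes were whole at these depths and 2.73% at wrong ones, relative tolerance 1e-06) and from exon lengths of GENCODE M21. The steps gave the ratios between the depths, and the exon lengths gave their absolute size. The window that set this size held 26.2% of 1943 genes, so the size is an estimate. Where a gene's own steps gave no reads, they were estimated from its M21 length. Protein features, planned as a description, were not analysed here. The scripts were tested on simulated data. Sharing of sequence was measured as 32-base words of the longest M21 transcript. Promoters are from RefSeq, GRCm38.p6, matched by symbol for 28 of the 43 genes. Python 3.11.15 with numpy, pandas and scipy was used. As alternatives, the pseudocount was set to 0.1 and 0.5 and the minimum to 4-fold, and only genes reaching 3 RPKM were kept. Others were quantile normalization, scaling of each stage to a sum of 1000000, and leaving out the 3 integrin-binding genes.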

Additional observations from a re-analysis of the deposited data

How the results depend on the processing

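No paired analysis was possible because the table has 1 column per stage, and for the same reason no replicate could be left out. With a pseudocount of 0.1, 14 in place of 9 genes were at least 2-fold higher from ESC to MES, and from CP to CM 8 were higher and 11 lower in place of 5 and 6. At a minimum of 4-fold, 4 were higher and 3 lower from ESC to MES, 5 were higher from MES to CP, 0 were higher and 3 lower from CP to CM, and 18 in place of 37 had such a range over the 4 stages. The ratio of CM to ESC in the summed alpha level (1.41) was 1.38 over genes reaching 3 RPKM, 1.51 with quantile normalization and 1.43 with each stage scaled to 1000000. For the beta genes (3.27) it was 3.36, 3.32 and 3.33, and for the claudins (0.231) 0.257 with quantile normalization. Scaling to 1000000 moved the median of all genes from CP to CM from -0.15 to -0.29. No named difference of at least 2-fold changed its sign under any of these settings. Counting error limits the values that rest on few reads, such as Cldn5 in MES, Cldn9 in CM and Itgb1bp3 in ESC and MES.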
